A study of Rattus norvegicus with 12 samples.

Results

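Genes that are widely used to recognise astrocytes, or to describe their state, were followed in the first sensory relays of the face and of the body, namely the glutamate transporters Slc1a2 (ENSRNOG00000005479) and Slc1a3 (ENSRNOG00000016163), the water channel Aqp4 (ENSRNOG00000016043), the calcium-binding protein gene S100b (ENSRNOG00000001295) and the intermediate filament gene Vim (ENSRNOG00000018087). They are 5 of the 32662 genes counted in each library and were taken by identifier. All 5 were among the 13833 genes with enough reads to be tested, and each had at least 304 reads in every library. Tissue of the trigeminal nucleus caudalis (TNC) of the lower medulla and of the spinal cord dorsal horn, abbreviated SC, was captured by laser from 14 µm sections of 6 male Wistar Han rats aged 10 weeks. The animals were naive, were kept on a reversed light cycle and were perfused with saline under pentobarbital and lidocaine. Each rat gave 1 library per region, so the 12 libraries form 6 SC and TNC pairs, and neither region is a treated group. How the captured areas were bounded was not given in the sources used here. The captured tissue holds neurons, glia and vessels together, and in such bulk samples fewer cells of a type and less RNA per cell cannot be told apart.

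Astrocytes clear glutamate from the synaptic cleft through Slc1a2 (GLT-1, EAAT2) and Slc1a3 (GLAST, EAAT1), and in pain research a loss of these transporters in the dorsal horn is a much studied state. Aqp4 forms the water channels that are packed into astrocyte endfeet around blood vessels. S100b encodes a small calcium-binding protein that astrocytes release, and cells of the oligodendrocyte lineage also make it. Vim encodes vimentin, a filament protein of immature and reactive astrocytes that is also abundant in endothelial, meningeal, ependymal and microglial cells. The genes therefore mark different properties of astrocytes, and S100b and Vim are not restricted to them.

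The 5 genes did not differ between the regions in one direction. Both glutamate transporters were higher in TNC than in SC, Slc1a3 by 1.44-fold and Slc1a2 by 1.20-fold. The other 3 genes were higher in SC, Vim by 2.27-fold, Aqp4 by 1.86-fold and S100b by 1.19-fold. All 5 passed an adjusted p of 0.05 (edgeR's quasi-likelihood test, blocked by rat, Benjamini-Hochberg adjustment over the 13833 genes), 2 as higher and 3 as lower in TNC. In the same test 30.3% of all genes passed, 15.0% as higher and 15.3% as lower in TNC, and 48.5% of the 2010 genes with a mean of 100 CPM or more passed. The median log2 fold change, TNC over SC, was -0.25 over the 5 genes, which is the value of S100b, and -0.01 over all tested genes. With genes in both directions it describes no common shift. Levels are given as CPM, read counts brought to a common library size with trimmed mean of M values (TMM) factors, which takes no account of transcript length. They are compared mainly between libraries. Where counts of different genes are set side by side, the values also reflect transcript lengths.

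**Figure D1:**
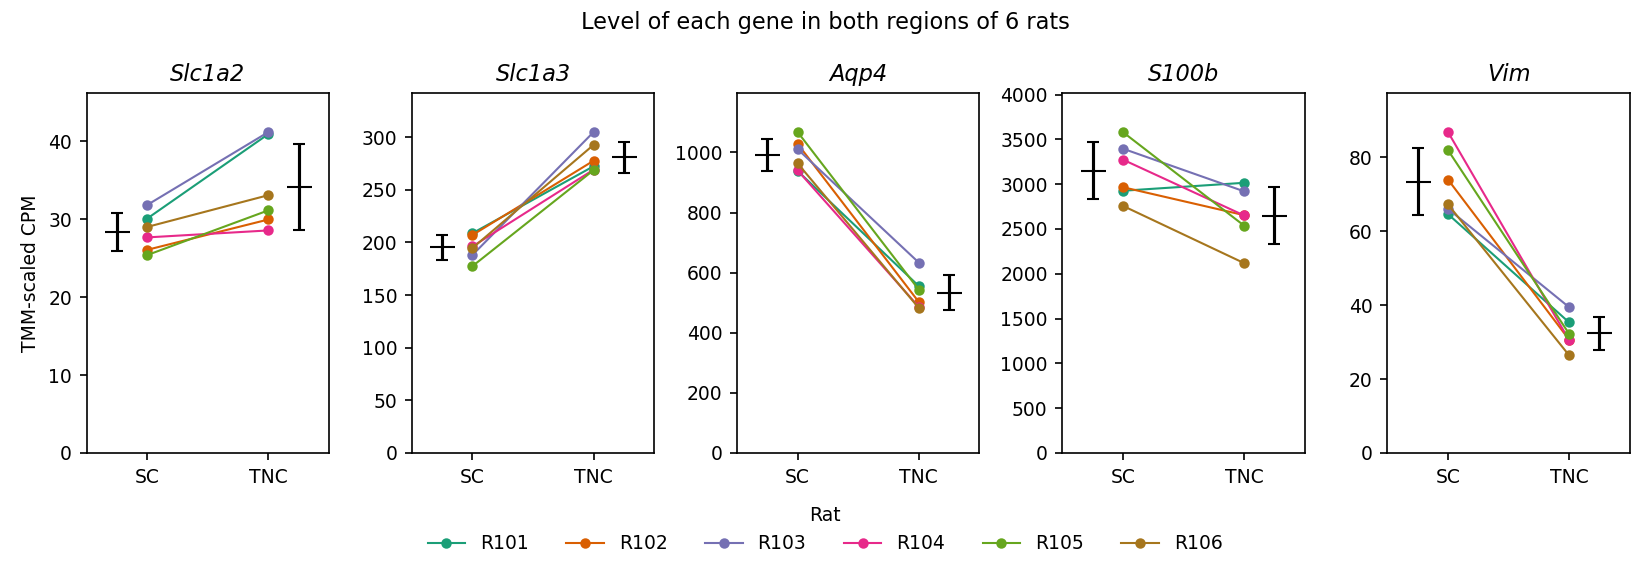
Level of each gene (TMM-scaled CPM, axis from 0) in SC and TNC, with a line joining both libraries of a rat and black bars for the mean ± SD over 6 libraries. Slc1a3, Aqp4 and Vim have no overlap between the regions, whereas the ranges of Slc1a2 and S100b overlap.

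Slc1a3 had 195 ± 11.7 CPM in SC and 281 ± 14.7 CPM in TNC (mean ± SD, n = 6 rats). The SC libraries lay between 177 and 209 CPM with a median of 195, and the TNC libraries between 269 and 305 CPM with a median of 275. The lowest TNC library was thus above the highest SC library. Slc1a3 is the transporter that radial glia and astrocytes already carry early in development. Its log2 fold change came to 0.52 (SE 0.05, from the 6 within-rat ratios, adjusted p = 1.01e-06, edgeR), and the 95% interval reached from 0.41 to 0.64 (limma voom). It was higher in TNC in 6 of 6 rats, by 30.5% in rat R101 up to 62.1% in rat R103.

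Slc1a2, the transporter that carries most of the glutamate uptake of the mature forebrain, differed less and with less certainty. It had 28.4 ± 2.45 CPM in SC and 34.2 ± 5.56 CPM in TNC (mean ± SD, n = 6 rats), with 304 to 488 reads per library. Slc1a2 transcripts have a long 3' end, and how much of it the annotation used covers is not known here, so these values may count only part of its reads. The SC libraries ranged from 25.4 to 31.8 CPM with a median of 28.3. The TNC libraries ranged from 28.6 to 41.2 CPM with a median of 32.1, so that the regions overlapped. The TNC libraries of rats R101 and R103, at 40.9 and 41.2 CPM, were the high ones, and the other TNC libraries did not exceed 33.1 CPM. The log2 fold change came to 0.26 (SE 0.06, adjusted p = 0.0264, edgeR; 95% interval from 0.08 to 0.45, limma voom). It was higher in TNC in 6 of 6 rats, but by 3.22% in rat R104 and 35.9% in rat R101. The call did not hold without the rat block (adjusted p = 0.0658, log2 fold change 0.27), nor without rat R101 (0.101), R103 (0.0788) or R105 (0.0552), with fold changes of 0.22, 0.24 and 0.26 on the log2 scale (edgeR).

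Aqp4 had 992 ± 52.5 CPM in SC and 534 ± 57.3 CPM in TNC (mean ± SD, n = 6 rats). The SC libraries lay between 938 and 1068 CPM with a median of 987, and the TNC libraries between 482 and 633 CPM with a median of 523. No TNC library came near the SC range. Its log2 fold change came to -0.90 (SE 0.06, adjusted p = 5.66e-10, edgeR; 95% interval from -1.004 to -0.791, limma voom), and 20 of all tested genes had a smaller adjusted p. Aqp4 was lower in TNC in 6 of 6 rats. The change was smallest in rats R103 and R101, at -37.3% and -40.8%, and largest in rat R102, at -51.1%.

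Vim had 73.5 ± 9.20 CPM in SC and 32.4 ± 4.49 CPM in TNC (mean ± SD, n = 6 rats). The SC libraries ranged from 64.7 to 86.9 CPM with a median of 70.6, and the TNC libraries from 26.4 to 39.4 CPM with a median of 31.4. The regions were again parted without overlap. With a log2 fold change of -1.18 (SE 0.12, adjusted p = 2.78e-08, edgeR; 95% interval from -1.39 to -0.98, limma voom), Vim had the largest difference of the 5 genes. Of all tested genes, 2.39% had a larger absolute log2 fold change, against 4.34% for Aqp4, 13.4% for Slc1a3, 37.4% for Slc1a2 and 38.9% for S100b. Vim was lower in TNC in 6 of 6 rats, with log2 ratios from -1.50 in rat R104 to -0.74 in rat R103.

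S100b had 3151 ± 316 CPM in SC and 2650 ± 316 CPM in TNC (mean ± SD, n = 6 rats), with at least 25680 reads per library. The SC libraries ranged from 2758 to 3582 CPM with a median of 3120, and the TNC libraries from 2119 to 3015 CPM with a median of 2653. The ranges overlapped, and the highest TNC libraries lay among the lower SC libraries. The log2 fold change came to -0.25 (SE 0.08, adjusted p = 0.00259, edgeR; 95% interval from -0.36 to -0.14, limma voom). S100b was lower in TNC in 5 of 6 rats and slightly higher in rat R101, at 3015 CPM in TNC against 2926 CPM in SC. In the other rats the log2 ratios lay between -0.50 in rat R105 and -0.16 in rat R102.

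**Figure D2:**
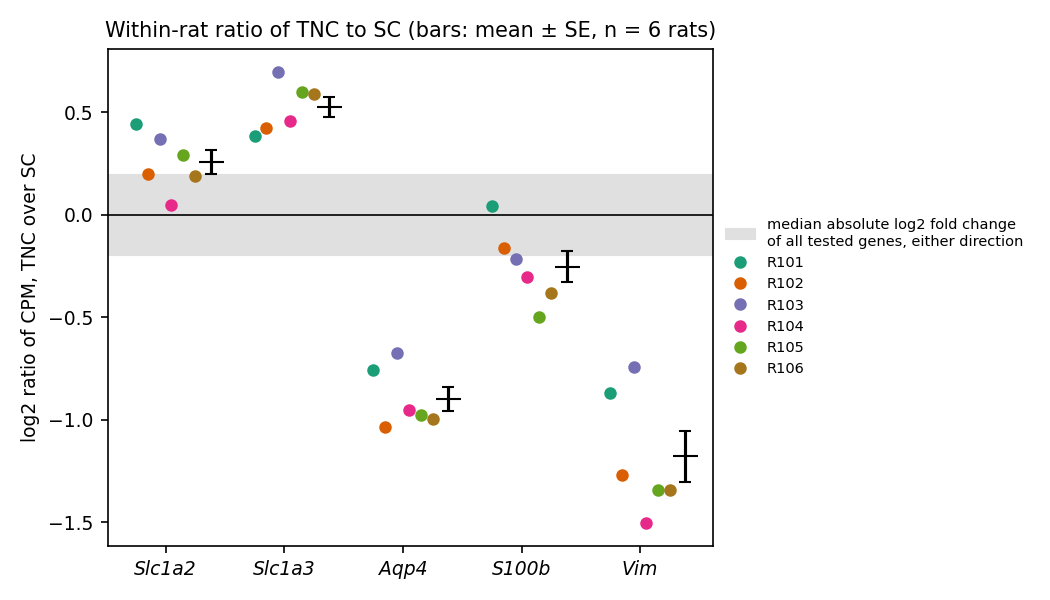
Within-rat log2 ratio of CPM, TNC over SC, for each gene, with 1 point per rat and black bars for the mean ± SE over 6 rats; the grey band spans the median absolute log2 fold change of all tested genes (0.19) in either direction. Both transporters lie above 0 in every rat, Aqp4 and Vim below 0 in every rat, and S100b is above 0 in rat R101 alone.

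The ranges of the regions did not overlap for 3 of the 5 genes, Slc1a3, Aqp4 and Vim, against 10.6% of all tested genes (5.07% higher and 5.54% lower in TNC). The direction was the same in 6 of 6 rats for 4 of the 5 genes, all except S100b, against 27.0% of all tested genes. The 5 genes were chosen with earlier results of these data known, and these shares were not matched to their abundance. Setting the genes beside such shares, here and for the calls above, is therefore description only. Rats R101, R102 and R103 and rats R104, R105 and R106 were parted on the second principal component of the whole profiles in both regions, and the labels name no batch that matches these sets. In the sets of rats the log2 ratios of S100b did not overlap, from -0.22 to 0.04 in R101 to R103 and from -0.50 to -0.30 in R104 to R106. The same held for Vim, with -1.27 to -0.74 and -1.50 to -1.34, while the ratios of Slc1a2, Slc1a3 and Aqp4 overlapped. Fitted in R101 to R103 alone, S100b had a log2 fold change of -0.11 (adjusted p = 0.194, edgeR), and in R104 to R106 alone -0.39 (adjusted p = 0.000525). Vim had -0.96 and -1.39 (adjusted p = 2.76e-05 and 3.71e-10, edgeR). Slc1a2 did not pass in either set, with 0.34 (adjusted p = 0.0605) and 0.18 (adjusted p = 0.342), whereas Slc1a3 and Aqp4 passed in both, with 0.50 and 0.55 and with -0.82 and -0.97 (edgeR). Of all genes tested in these fits, 2311 of 13922 passed in R101 to R103 and 2845 of 13923 in R104 to R106. How many of all tested genes part between these sets was not counted, and the sets part on a component of these same profiles. The ratios that do not overlap are therefore description only, and whether the sets of rats differ was not tested.

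Alignments that fell outside annotated genes differed in frequency with the region. Their share was 14.999% ± 0.489 in SC and 13.2% ± 1.03 in TNC (mean ± SD, n = 6 rats), and lower in TNC in 6 of 6 rats. The gap was -0.467 percentage points in rat R102 and between -2.32 and -1.89 in the other rats. With this share as a covariate beside the rat, Aqp4 (log2 fold change -1.07, adjusted p = 0.00292) and Vim (-1.33, adjusted p = 0.0498) still passed, with sizes no smaller than before, among 64 genes that passed in all (edgeR). Slc1a3 (0.34, adjusted p = 0.495), Slc1a2 (0.16, adjusted p = 0.918) and S100b (-0.07, adjusted p = 0.944) kept their direction and did not pass. The covariate nearly follows the region, which raised the variance of the region estimate 9.47-fold, and mainly rat R102 tells them apart. Reads on genes numbered between 11223405 and 14591508 per library and were lower in TNC in 5 of 6 rats. When all libraries were thinned to equal totals, all 5 genes passed as before. Levels of markers of other cell types were not analysed here, because the files do not pair identifiers with symbols, so their part in these differences was not tested.

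Relations between the genes within a library do not depend on how libraries are scaled. For each read of Aqp4 there were 0.166 to 0.222 reads of Slc1a3 in the SC libraries (median 0.202) and 0.481 to 0.607 in the TNC libraries (median 0.524). Measured against the water channel of the endfeet, the transporter was thus higher in every TNC library than in any SC library. For each read of Vim there were 2.16 to 3.23 reads of Slc1a3 in SC and 7.71 to 11.1 in TNC. Both separations restate those of the single genes and were settled by them. Every TNC library had more CPM of Slc1a3, and fewer of Aqp4 and of Vim, than any SC library. Aqp4 and Vim, both lower in TNC, also shifted against each other, with 10.8 to 15.3 reads of Aqp4 for each read of Vim in SC and 15.7 to 18.3 in TNC. The ratio of both transporters overlapped between the regions, with 0.126 to 0.169 reads of Slc1a2 for each read of Slc1a3 in SC and 0.106 to 0.150 in TNC. The size of such a ratio also reflects transcript lengths, which are the same in both regions only if the same transcripts are used. Reads of Slc1a2 may moreover be counted only in part, so its ratio to Slc1a3 does not rank the transporters by amount of RNA.

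The within-rat log2 ratios of TNC over SC were compared for all 10 pairs of genes (exact two-sided sign-flip permutation test over 6 rats, Benjamini-Hochberg adjustment over the 10 pairs). In 9 pairs all 6 rats differed in the same direction, each with an exact p of 0.0312, the smallest that 6 rats allow, and an adjusted p of 0.0347. For either transporter against Aqp4 or Vim this result was settled beforehand. The transporters were higher and Aqp4 and Vim lower in TNC in every rat, so those pairs restate the directions of the single genes. All 10 pairs are built from the same 5 genes and are not independent. Slc1a3 exceeded Vim by 1.70 ± 0.12 and Aqp4 by 1.42 ± 0.07 on the log2 scale (mean ± SE, n = 6). Slc1a2 exceeded Vim by 1.43 ± 0.08, Aqp4 by 1.15 ± 0.04 and S100b by 0.51 ± 0.07. Genes that were all lower in TNC differed among themselves in the extent: the ratio of Aqp4 was lower than that of S100b, with a difference of -0.65 ± 0.07, and that of Vim was lower still, by 0.28 ± 0.07 against Aqp4 and 0.93 ± 0.10 against S100b. The remaining pair was that of the transporters, in which Slc1a2 had the smaller ratio in 5 of 6 rats (difference -0.27 ± 0.07, range from -0.41 to 0.06, exact permutation p = 0.0625, adjusted p = 0.0625), which does not pass and does not show that the transporters differ equally between the regions.

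**Figure D3:**
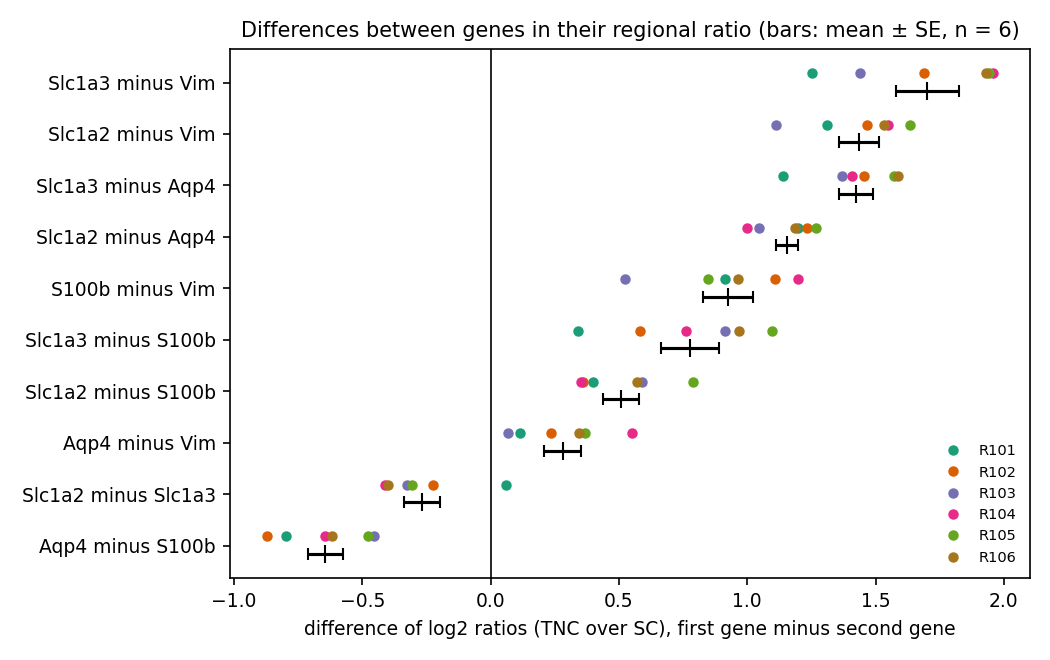
Difference between genes in their within-rat log2 ratio (TNC over SC), first gene minus second gene, for all 10 pairs, with 1 point per rat and black bars for the mean ± SE over 6 rats. All rats lie on one side of 0 in 9 pairs, and rat R101 crosses 0 for Slc1a2 against Slc1a3.

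The coefficient of variation among the rats was above the counting error for every gene in both regions. The coefficient of variation of Slc1a3 was 6.01% in SC and 5.25% in TNC, with a counting error of 1.99% and 1.74%. That of Aqp4 was 5.30% in SC and 10.7% in TNC, with a counting error of 0.885% and 1.27%. Vim varied by 12.5% and 13.8%, with a counting error of 3.25% and 5.14%, S100b by 10.04% and 11.9%, and Slc1a2 by 8.63% and 16.3%, where counting error is 5.23% and 5.003%. The median over genes with a mean of 100 CPM or more was 6.60% in SC and 7.93% in TNC, so Slc1a3 was below this median in both regions, S100b, Vim and Slc1a2 were above it in both, and Aqp4 was below it in SC and above it in TNC. Vim and Slc1a2 themselves had a lower mean CPM than those genes. Rat R103 had the highest TNC level of Slc1a2, Slc1a3, Aqp4 and Vim, and rat R106 the lowest TNC level of Aqp4, S100b and Vim. Across the 15 sets of 6 values (each gene in each region, and each gene's ratio), the number with 1 value far from the others by Dixon's criterion was 0.

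Rats that were high for a gene in one region were not shown to be high for it in the other. Between SC and TNC over the 6 rats, Pearson's r of log2 CPM was 0.83 for Slc1a2 (exact permutation p = 0.0542, adjusted p = 0.271 over 5 genes; Spearman's rho 0.77, exact p = 0.103). Without the 2 rats farthest from the median in SC, r was 0.82. For the other 4 genes r lay between -0.30 for Vim and 0.35 for S100b, with adjusted p of 0.747 to 0.808 (exact permutation tests).

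Within TNC, Aqp4 and Vim ordered the 6 rats identically. From the lowest to the highest, rats R106, R104, R102, R105, R101 and R103 had 482, 486, 502, 543, 555 and 633 CPM of Aqp4. The same rats in the same order had 26.4, 30.5, 30.7, 32.2, 35.3 and 39.4 CPM of Vim. Pearson's r of log2 CPM was 0.93 (exact permutation p = 0.00139, the smallest that 720 pairings allow, adjusted p = 0.0139 over 10 pairs of genes) and Spearman's rho was 1 (exact permutation p = 0.00278, adjusted p = 0.0278). Without rats R103 and R106, the farthest from the median, r was 0.89. In SC, r of Aqp4 and Vim was 0.22 (exact permutation p = 0.654, adjusted p = 0.690) with rho 0.37 (p = 0.497), and whether the regions differ in this relation was not tested. The sets R101 to R103 and R104 to R106 hold too few rats for a correlation of their own. The other 9 pairs in TNC and all 10 pairs in SC did not pass. Genes of 1 library share its scaling factor, which adds to such correlations. In TNC the TMM factor was highest in rat R106 (1.010) and lowest in rat R103 (0.965), the rats lowest and highest in both genes. The TNC library of R103 also had the fewest genes detected (16449). Whether the shared order follows such properties of whole libraries was not tested.

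**Figure D4:**
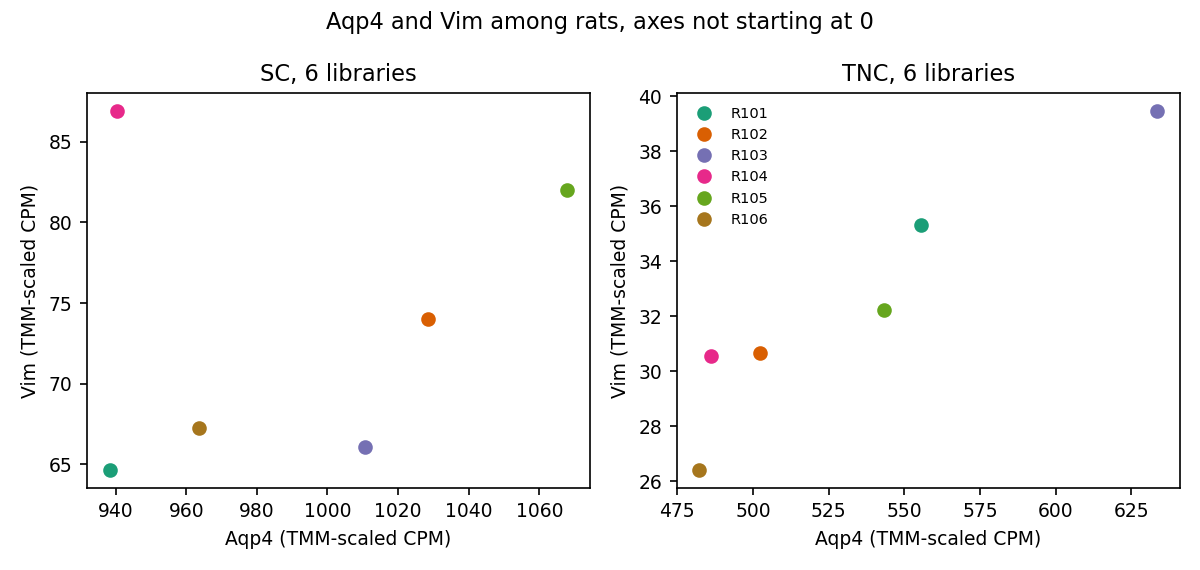
Level of Vim against level of Aqp4 (TMM-scaled CPM, axes not from 0) in the 6 SC and the 6 TNC libraries, 1 point per rat. In TNC both genes rise through the same order of rats, from R106 to R103, and in SC rat R104 has the highest Vim at the second lowest Aqp4.

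Over all 12 libraries, where the regional difference dominates, Pearson's r of log2 CPM between Aqp4 and Vim was 0.978. Among the 9539 other genes that averaged 10 CPM or more, Vim ranked 1 in likeness to Aqp4, and Aqp4 ranked 2 in likeness to Vim. With the region means removed their r was 0.69, and that of S100b and Vim was 0.74. Slc1a3 and Slc1a2 had an r of 0.67 over the 12 libraries, Slc1a3 ranked 695 in likeness to Slc1a2, and Slc1a2 ranked 1593 in likeness to Slc1a3. Outside the 5 genes, the gene most like Vim was ENSRNOG00000003357 (r = 0.981), with 22.8 ± 6.02 CPM in SC and 4.18 ± 1.05 CPM in TNC, and the gene most like Aqp4 was ENSRNOG00000002919 (r = 0.972), with 2886 ± 586 CPM in SC and 618 ± 152 CPM in TNC (mean ± SD, n = 6). The genes most like the transporters were higher in TNC: ENSRNOG00000002051 for Slc1a3 (r = 0.979), with 233 ± 12.7 CPM in SC and 308 ± 16.8 CPM in TNC, and ENSRNOG00000006067 for Slc1a2 (r = 0.931), with 33.3 ± 3.62 and 42.3 ± 5.78 CPM (mean ± SD, n = 6). These correlations describe 12 libraries that share 6 rats and are given without a test. Genes chosen by likeness over both regions tend to share the regional direction, so their direction is no separate result.

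The start-site windows of Slc1a3 and Vim, the genes with the largest difference in each direction, are shown to set 2 unlike promoters side by side. They hold the 250 bases before the start site in RefSeq (GRCr8), matched by symbol, at chr2:59557809-59558058 on the minus strand for Slc1a3, the first of several starts listed, and at chr17:81577011-81577260 on the plus strand for Vim. Capitals mark TATAAA and CCAAT, searched on both strands.
Slc1a3: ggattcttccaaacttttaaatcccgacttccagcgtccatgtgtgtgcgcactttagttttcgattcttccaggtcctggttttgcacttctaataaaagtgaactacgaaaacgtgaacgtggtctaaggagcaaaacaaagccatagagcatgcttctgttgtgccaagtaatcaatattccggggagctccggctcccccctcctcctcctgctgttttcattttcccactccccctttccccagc
Vim: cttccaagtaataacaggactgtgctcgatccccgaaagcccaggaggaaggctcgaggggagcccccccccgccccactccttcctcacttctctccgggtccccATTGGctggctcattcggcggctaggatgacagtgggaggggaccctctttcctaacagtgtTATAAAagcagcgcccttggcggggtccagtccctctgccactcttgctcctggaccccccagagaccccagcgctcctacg
The window of Vim holds 1 TATAAA and 1 CCAAT, the latter on the minus strand, and 62.4% G and C. That of Slc1a3 holds 0 of either and 48.0% G and C, with a median of 51.2% over all 33469 windows. TATAAA occurs in 12.9% and CCAAT in 34.0% of all windows. The 9 windows listed for the 5 genes hold 0 matches to TTCNNNGAA (STAT), the full palindrome of nuclear factor I or AACAAT (SOX) on either strand, which occur in 7.67%, 0.0359% and 10.3% of all windows. These are matches of letters and were not measured as sites in these tissues.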

How the data were processed

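Poly(A) RNA of laser-captured SC and TNC was sequenced on an Illumina HiSeq instrument, per the labels' protocols. The deposited files hold raw read counts per gene, 1 library each; STAR and HTSeq are named in the submitters' processing notes. The build, annotation, strand and settings were not given in the sources used here, so reads of overlapping genes, and transcript parts outside the annotation, may be missed. The 5 symbols came with the identifiers when the genes were chosen. The RefSeq gene table (GRCr8) matched 0 of the 32662 identifiers, so gene lists fixed by symbol were not run.

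HTSeq's summary lines (14.999% of alignments outside genes in SC, 13.2% in TNC) were left out. Genes passed edgeR's filterByExpr (minimum count 10), libraries were TMM-scaled, and glmQLFit (not legacy) with glmQLFTest was fitted on rat plus region over 12 libraries, Benjamini-Hochberg over 13833 genes. The pairing follows from both regions being taken from each rat: deviations from the region means correlated at 0.142 to 0.195 within a rat and at most 0.0491 between rats. Log2 CPM used a prior count of 2. Intervals are from limma voom. Other tests were exact permutations over the 6 rats. Libraries of a region differed by more than sampling noise (chi-square per degree of freedom at least 6.72). The edgeR p-values and limma voom intervals set the regional difference within rats against its spread over the rats. Their variance estimates borrow from all tested genes. The SE printed beside them is from the gene's own 6 within-rat ratios, so an interval can be narrower than that SE alone would give. The test was first tested on simulated data. Genes named were the 5, and the gene most like each, of which at most 2 per direction are printed. Members, lists and alternatives were chosen with earlier results of these data known; TATAAA and CCAAT were added after the other motifs were searched. Versions were edgeR 4.0.16, DESeq2 1.42.0 and limma 3.58.1 under R 4.3.3.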

Additional observations from a re-analysis of the deposited data

How the results depend on the processing

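The alternatives were RLE and upper-quartile scaling, no filter, a filter of 1 CPM, DESeq2, limma voom, the legacy quasi-likelihood fit, no replicate block, thinning to equal totals, each rat left out, both sets of 3 rats, and the share of alignments outside genes as a covariate. The 5 genes kept their direction in all 18 of these fits, and Aqp4 and Vim also their call. Slc1a2 lost its call with no replicate block (0.27), in rats R101 to R103 (0.34), in rats R104 to R106 (0.18), with the covariate (0.16), and without rat R101, R103 or R105 (0.22, 0.24 and 0.26). S100b lost it in rats R101 to R103 (-0.11) and with the covariate (-0.0705), and Slc1a3 with the covariate (0.34). The block changed no other call. With a rat left out, the log2 fold change ranged from 0.22 to 0.30 for Slc1a2, 0.49 to 0.55 for Slc1a3, -0.94 to -0.87 for Aqp4, -0.31 to -0.20 for S100b and -1.27 to -1.11 for Vim. Of the 5 genes 3 passed in rats R101 to R103 and 2 with the covariate, where 2311 and 64 of all genes passed against 4192. Both sets hold 3 rats, and in R104 to R106 S100b passed with a log2 fold change of -0.39 (adjusted p = 0.000525, edgeR). The covariate is nearly collinear with region. Why calls were lost was not tested. A prior count of 0.5 changed no call of the 10 pairs, and with 5 rats no pair can pass. Counting error was larger for Slc1a2 (5.23% in SC and 5.003% in TNC) and, in TNC, Vim (5.14%) than for the other genes. It stayed below their coefficients of variation among rats, 8.63% and 16.3% for Slc1a2 and 13.8% for Vim in TNC.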

Other observations

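The size of the regional ratio was also compared among rats between genes. Rats R101 and R103, in which Vim was least reduced in TNC (log2 ratios of -0.87 and -0.74), had the least reduced Aqp4 (-0.76 and -0.67) and the highest ratios of Slc1a2 (0.44 and 0.37). Over the 6 rats, Pearson's r of the within-rat log2 ratios was 0.91 for Aqp4 and Vim (exact permutation p = 0.0458, adjusted p = 0.229 over 10 pairs; Spearman's rho 0.49, exact p = 0.356) and -0.90 without the 2 rats farthest from the median of Aqp4, R101 and R103, so it rests on those rats. For Slc1a2 and Vim r was 0.87 (exact permutation p = 0.0194, adjusted p = 0.194; rho 0.89, exact p = 0.0333) and 0.81 without rats R101 and R104. After adjustment 0 of the 10 pairs passed.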
